A study of Mus musculus with 16 samples.

Results

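RNA was compared between the livers of 6-month-old and 1-month-old mice on day 2 after an injection of diethylnitrosamine (DEN). This comparison takes 6 of the 16 libraries of the series, 3 at each age, chosen by the age and day given in the sample labels. All mice were wild type C57BL/6 males, and the mice of these 6 libraries had received DEN intraperitoneally and were sacrificed 2 days later. The labels give the dose as 25 mg/Kg body weight and the age of the younger mice as 3-4 weeks, while the treatment protocol in the same labels calls them 1 month old and the paper's methods give another unit for the dose. Each library is a pool that mixes the liver RNA of 3 mice in equal parts, so that the spread between libraries given here is a spread between pools and not between animals. The other 10 libraries were untreated livers (2 at each age) and livers on day 6 after DEN (3 at each age). They were fitted in the same model, so the choice of genes tested, the scaling and the estimate of spread on day 2 also rest on them. Their own values are given only where a result on day 2 is set beside them.

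DEN is a liver carcinogen that is not toxic until cytochrome P450 (CYP) enzymes of hepatocytes convert it into an alkylating agent, which damages DNA and activates the p53 response. Between weaning and adulthood the mouse liver itself is still changing. Growth and cell division slow down, genes of the fetal and juvenile liver are shut off, and in males sexual maturation brings a pulsed release of growth hormone, which raises male-biased liver genes and represses female-biased ones. The study asked how the response to DNA damage changes with age.

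The 6 libraries held 21592732 to 30606448 counts. The Pearson correlation of log2 CPM (counts scaled to the library size) was 0.973 to 0.9861 between libraries of the same age and 0.9534 to 0.9791 between libraries of different ages, and the first principal component, with 46.48% of the variance, separated the ages. On that component 1-month replicate 1, at -13.82, lay nearer to the 6-month libraries (29.79 to 46.11) than 1-month replicates 2 and 3 did (-54.57 and -40.76). In replicate 3 of each age the circadian clock stood at another phase: a score that takes the mean log2 CPM of 9 clock genes peaking with Dbp minus that of 5 peaking with Arntl was -2.41 in 1-month replicate 3 and -0.46 in 6-month replicate 3, against 2.94 to 4.38 in the other 4 libraries. The labelled tissue was borne out by hepatocyte markers such as Ahsg and Ttr, which were among the most abundant genes, although albumin (Alb) is listed at 0 in all 6 libraries. The 4 Y-linked genes measured were at 202 to 246 CPM in sum at 1 month and at 212 to 220 CPM at 6 months.

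Of the 15684 genes that could be tested, 926 (5.9%) passed at an adjusted p under 0.1 by the quasi-likelihood test of edgeR, adjusted by the Benjamini-Hochberg method. At 6 months 513 of them were higher (3.27% of the genes tested) and 413 lower (2.63%). The higher genes differed more and were expressed less. Their median log2 fold change was 1.4 and 154 of them differed by more than 4-fold, with a median level of 4.79 CPM at the age where they were high. For the lower genes the median log2 fold change was 0.94 in size, 68 differed by more than 4-fold and the median level was 19.6 CPM. The 3 libraries of one age did not overlap those of the other for 502 of the 513 higher and 407 of the 413 lower genes. Among all genes tested, 3345 (21.3%) did not overlap. The median log2 fold change of all genes was -0.004. With library totals alone as the scaling, 722 genes were higher and 260 were lower, so that 73.5% of the calls were higher in place of 55.4%. The counts also rested on single libraries: they were 1142 higher and 1117 lower without 1-month replicate 1, 243 and 200 without 1-month replicate 2, 267 and 229 without 1-month replicate 3, 289 and 203 without 6-month replicate 1, 564 and 320 without 6-month replicate 2, and 223 and 162 without 6-month replicate 3. With the clock score as a covariate, 990 genes were higher and 950 lower, and all 926 genes called before were among them in the same direction. With the 6 day 2 libraries fitted alone, 271 genes were higher and 193 lower.

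**Figure D1:**
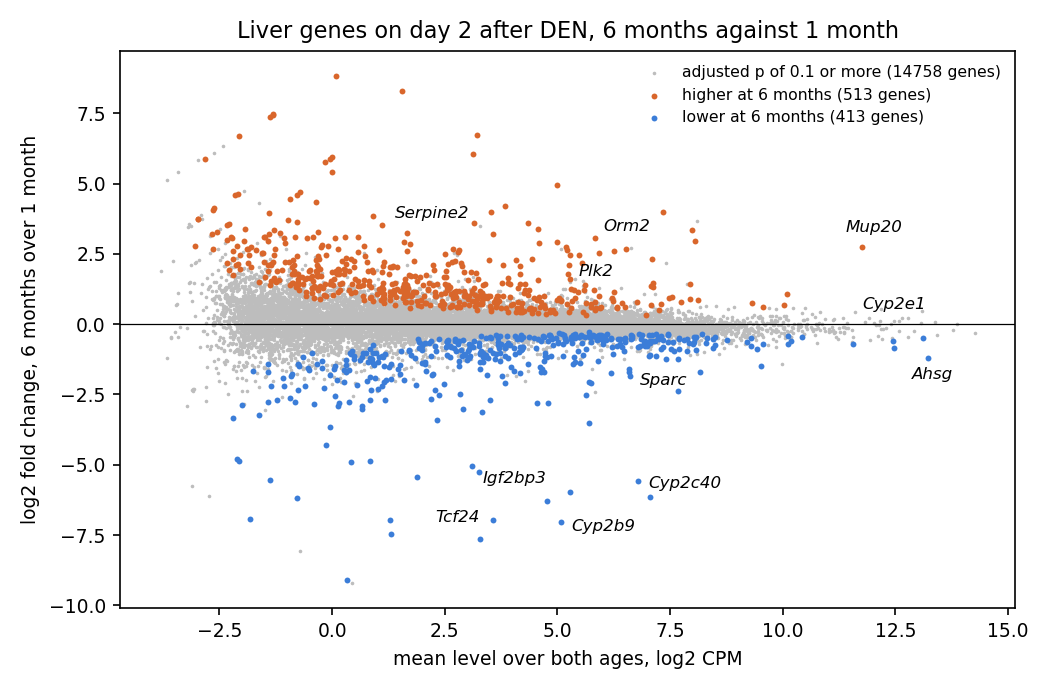
Each point is 1 of the 15684 genes tested, with its mean level over both ages in log2 CPM on the x axis and its log2 fold change of 6 months over 1 month on the y axis. The 513 genes that were higher and the 413 that were lower at an adjusted p under 0.1 are coloured and named for the examples in the text. Both sets spread over the whole range of levels, and Ahsg and Mup20 are the most abundant genes labelled in the plot that passed.

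The gene lists described from here on were counted against these shares. The lists of cholesterol synthesis (24 genes), fatty acid synthesis (21), NRF2 and oxidant defence (32), pericentral hepatocytes (20), macrophages (13) and cholangiocytes (9) held no gene that passed by edgeR in either direction. Of each list 1 to 6 genes were at an unadjusted p under 0.05, beside 2997 of all 15684 genes tested. DESeq2 called 3 pericentral genes and 1 macrophage gene higher and 2 NRF2 genes lower. Without 1-month replicate 1 there were 5 lower cholesterol genes, 2 lower NRF2 genes, 1 lower fatty acid synthesis gene, 2 higher pericentral genes and 1 higher macrophage gene. Without 1-month replicate 2 there were 2 higher NRF2 genes. Without 1-month replicate 3 or 6-month replicate 3 there was 1 higher pericentral gene, and without 6-month replicate 2 there was 1 each in the NRF2 and fatty acid lists (lower) and in the pericentral and macrophage lists (higher).

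**Figure D2:**
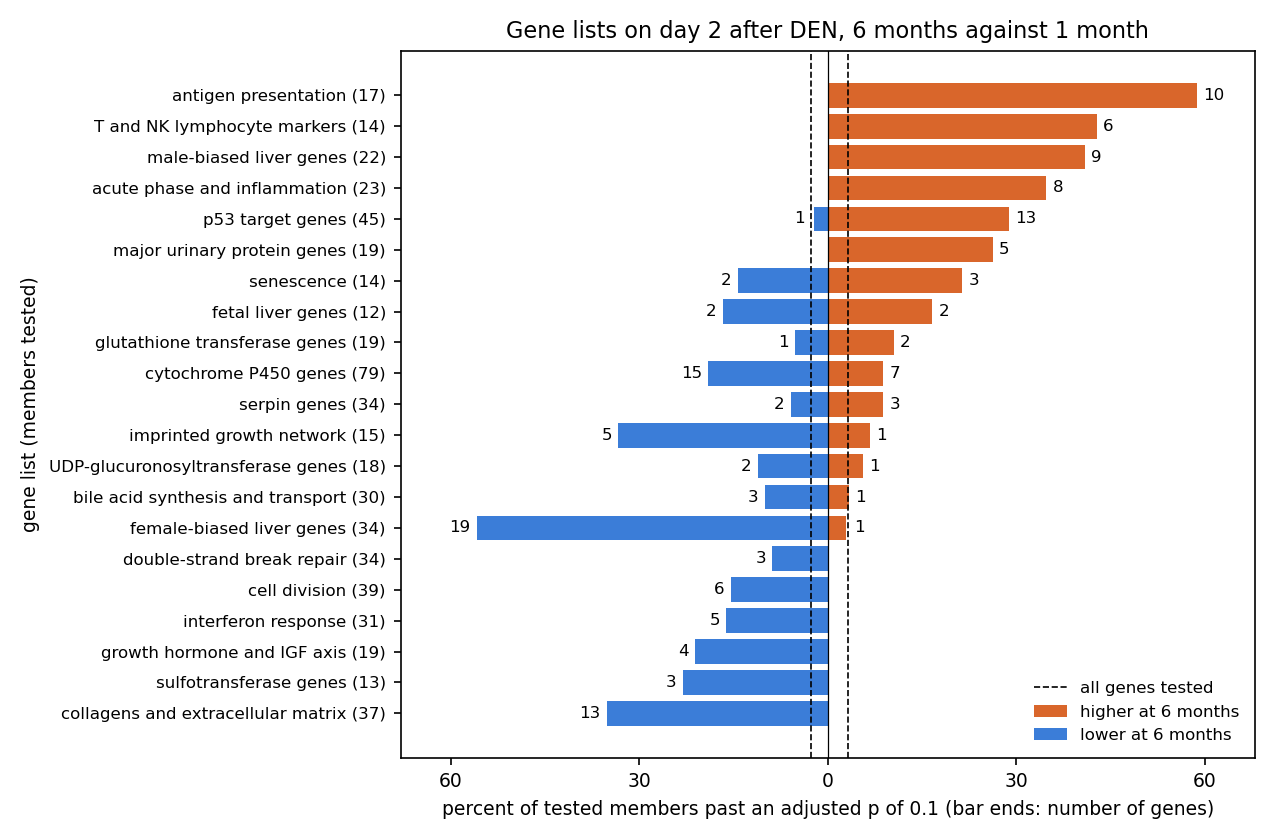
Bars show the percent of the tested members of each gene list that were higher (right) or lower (left) at 6 months at an adjusted p under 0.1, with the number of genes at the bar ends and the share of all genes tested as dashed lines (3.27% higher, 2.63% lower). Lists with at least 10 members tested and at least 3 that passed are drawn. The longest bars belong to antigen presentation (10 of 17 higher) and to the female-biased genes (19 of 34 lower).

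The 2 genes with the smallest p were Igf2bp3, an RNA-binding protein of the fetal liver, and Serpine2, an inhibitor of serine proteases. Igf2bp3 (ENSMUSG00000029814, chr6:49085223-49214957 of GRCm38, minus strand) was measured at 18.5, 13.6 and 18.0 CPM at 1 month and at 0.469, 0.418 and 0.597 CPM at 6 months. It was 33.2-fold lower at 6 months (log2 fold change -5.05, standard error 0.24, adjusted p = 6.43e-08). Serpine2 (ENSMUSG00000026249, chr1:79794197-79861180 of GRCm38, minus strand) was measured at 1.66, 1.20 and 1.18 CPM at 1 month and at 21.6, 22.7 and 20.5 CPM at 6 months, and was 16.1-fold higher (log2 fold change 4.01, standard error 0.20, adjusted p = 6.43e-08). In both genes the spread within an age was small beside the gap between the ages.

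Other genes with small p-values were higher as well. Nat8, an acetyltransferase of the endoplasmic reticulum, was measured at 1.79, 1.46 and 1.13 CPM at 1 month and at 23.9, 27.1 and 29.7 CPM at 6 months (log2 fold change 4.20, standard error 0.26, adjusted p = 5.77e-07). Atp11a, a phospholipid flippase, was at 6.03, 4.74 and 6.49 CPM at 1 month and at 31.9, 39.1 and 57.0 CPM at 6 months (log2 fold change 2.89, standard error 0.27, adjusted p = 4.53e-05). Unc13b is a vesicle priming factor, Tiam2 an activator of RAC1 and Zfp809 a zinc finger repressor of retroviral elements. They had log2 fold changes of 2.29, 3.20 and 1.41. A lack of overlap between the ages was a condition for naming these genes.

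Other genes were nearly silent at 1 month. Tmem28 had no read in the 3 libraries of 1-month-old livers and was at 1.85, 2.84 and 1.73 CPM at 6 months, which is at least 51.4-fold higher when 3 reads over the 1-month group are taken as the limit. Chrm3, a muscarinic acetylcholine receptor, had a single read at 1 month and was at 3.60, 5.43 and 8.40 CPM at 6 months. Scara5, a receptor for ferritin, was measured at 0.552, 0.0365 and 0.218 CPM at 1 month and at 16.6, 21.1 and 14.1 CPM at 6 months (log2 fold change 6.06, standard error 0.83, adjusted p = 9.28e-04), and 1-month replicate 1 stood above the other 1-month libraries. Among the genes that were nearly silent at 6 months was Tcf24, a basic helix-loop-helix factor, which was measured at 20.7, 22.3 and 28.2 CPM at 1 month and at 0.282, 0.125 and 0.133 CPM at 6 months (log2 fold change -6.97, standard error 0.48, adjusted p = 1.90e-06). Cd209f, a C-type lectin, was measured at 2.07, 3.17 and 2.48 CPM at 1 month and at 0.0626, 0.167 and 0.0332 CPM at 6 months.

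**Figure D3:**
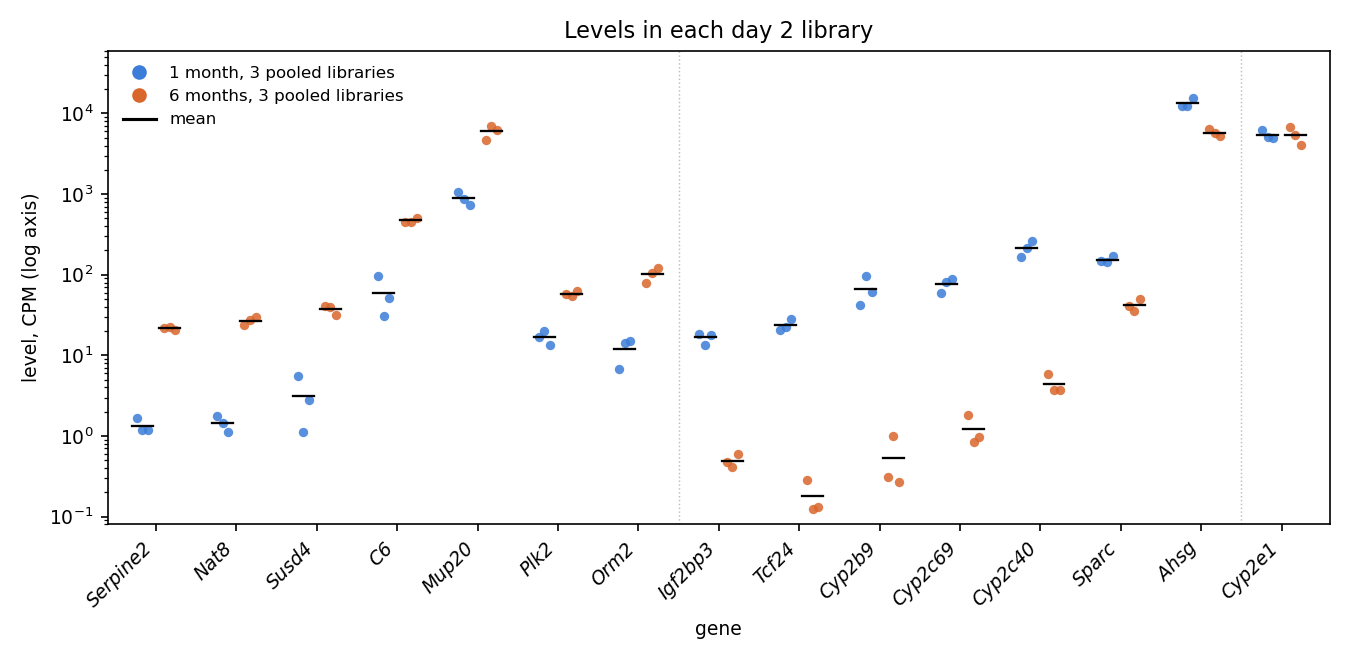
Points are the levels in CPM, on a log axis, of 15 genes in the 3 pooled libraries of each age on day 2 after DEN, and lines are the means. The first 7 genes were higher and the next 7 lower at 6 months. None of these overlapped between the ages, which was a condition for the genes named by the largest change or the smallest p. Cyp2e1 (5025 to 6178 CPM at 1 month, 4112 to 6810 CPM at 6 months) overlapped.

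Female-biased liver genes were lower, and 8 of the 10 genes with the largest fall were among them. Of 34 tested, 19 were lower and 1 was higher at 6 months, 14 did not pass, and the median log2 fold change was -2.7. Without any 1 library between 16 and 23 were lower. In untreated livers 16 of the 34 were lower (1.06% of all genes tested there) and on day 6 it was 15 (1.86%). Cyp2c40, a P450 that hydroxylates arachidonic acid, had the smallest p of the list. It lies beside Cyp2c69 on chromosome 19, and the promoters of both are shown because the genes moved together and are close copies. In RefSeq (GRCm38), 220 bases before their starts could be compared without a gap, and 217 of them (98.6%) were identical. The sequences are written 5′ to 3′ on the strand of the gene, with the 3 bases that differ in capitals.
Cyp2c40 (chr19:39812815-39813034, minus strand): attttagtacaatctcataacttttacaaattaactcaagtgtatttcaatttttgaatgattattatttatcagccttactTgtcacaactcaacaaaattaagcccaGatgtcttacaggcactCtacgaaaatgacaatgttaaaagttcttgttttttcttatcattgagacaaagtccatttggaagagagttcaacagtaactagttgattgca
Cyp2c69 (chr19:39886800-39887019, minus strand): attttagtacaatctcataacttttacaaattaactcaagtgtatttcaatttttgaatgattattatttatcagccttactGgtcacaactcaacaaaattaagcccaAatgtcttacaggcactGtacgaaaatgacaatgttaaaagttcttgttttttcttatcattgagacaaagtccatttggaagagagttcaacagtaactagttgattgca

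Cyp2c40 (ENSMUSG00000025004, chr19:39767071-39812814 of GRCm38, minus strand) was measured at 167, 217 and 265 CPM at 1 month and at 5.91, 3.76 and 3.68 CPM at 6 months. It was 48.3-fold lower at 6 months (log2 fold change -5.59, standard error 0.35, adjusted p = 5.77e-07). Cyp2c69 (ENSMUSG00000092008, chr19:39842660-39886769 of GRCm38, minus strand) was measured at 59.7, 82.4 and 88.7 CPM at 1 month and at 1.82, 0.835 and 0.963 CPM at 6 months (log2 fold change -5.97, standard error 0.42, adjusted p = 2.02e-06). Of the 50-base words in the annotated transcripts of Cyp2c69, 46.5% also occur in those of Cyp2c40, so that reads of one gene may have been counted for the other. Cyp2b9, a P450 that metabolizes steroids and drugs, was measured at 42.0, 96.4 and 61.4 CPM at 1 month and at 0.313, 1.00 and 0.266 CPM at 6 months (log2 fold change -7.05, standard error 0.57, adjusted p = 1.33e-05), and it shares 10.8% of its words with Cyp2b13. The 6-month libraries thus held few reads of genes that were abundant in each 1-month library.

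The other female-biased genes that were lower included transporters and enzymes. Slc22a26, an organic anion transporter, was measured at 11.3, 26.6 and 18.2 CPM at 1 month and at 0.814, 0.251 and 0.332 CPM at 6 months (log2 fold change -5.27, standard error 0.50, adjusted p = 4.27e-05). Hao2, a hydroxyacid oxidase of peroxisomes, was at 7.78, 26.6 and 23.9 CPM at 1 month and at 0.0626, 0.0835 and 0.133 CPM at 6 months (log2 fold change -7.64, standard error 0.83, adjusted p = 1.70e-04). In Cyp2b9, Slc22a26 and Hao2 the 1-month libraries spread widely, with replicate 2 the highest. A1bg was at 0.598, 10.4 and 3.44 CPM at 1 month and had 3 reads in all at 6 months. Ntrk2, a neurotrophin receptor, was the single gene of the list that was higher, at 1.33, 1.24 and 1.44 CPM at 1 month and at 19.4, 11.4 and 18.2 CPM at 6 months (log2 fold change 3.61, standard error 0.33, adjusted p = 3.94e-05). Cyp4a14, a fatty acid hydroxylase, did not pass and varied over 24.2 to 1576 CPM among the 6-month libraries, with replicate 1 the highest.

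Growth hormone signals in the liver through STAT5, and whether STAT5 acts on these genes was not tested. Its binding motif TTCNNNGAA was looked for in the 250 bases before each start in RefSeq (GRCm38, the motif reads alike on both strands). It was found in 3 of the 17 promoters listed for the female-biased genes that were lower (17.6%), in 3 of the 34 for all female-biased genes tested (8.82%) and in 2306 of 32851 promoters in all (7.02%). Of the 3 that hold a copy, the promoters of Slc22a26 and A1bg are shown 5′ to 3′ on the strand of the gene with the motif in capitals.
Slc22a26 (chr19:7802668-7802917, minus strand): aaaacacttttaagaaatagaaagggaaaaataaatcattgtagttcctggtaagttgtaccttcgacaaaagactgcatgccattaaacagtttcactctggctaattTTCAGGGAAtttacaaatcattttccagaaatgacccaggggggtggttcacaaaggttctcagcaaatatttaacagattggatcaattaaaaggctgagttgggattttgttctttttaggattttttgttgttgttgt
A1bg (chr15:60921271-60921520, minus strand): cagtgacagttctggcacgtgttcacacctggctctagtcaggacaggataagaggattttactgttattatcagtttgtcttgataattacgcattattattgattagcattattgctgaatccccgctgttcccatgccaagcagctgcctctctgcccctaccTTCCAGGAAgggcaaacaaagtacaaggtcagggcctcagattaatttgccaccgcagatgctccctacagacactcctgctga

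Male-biased liver genes were higher in part. Of 22 tested, 9 were higher and none was lower at 6 months, 13 did not pass, and the median log2 fold change was 0.84. Without any 1 library 8 or 9 were higher. Mup20, a major urinary protein that carries male scent signals, was measured at 1052, 881 and 738 CPM at 1 month and at 4757, 7060 and 6317 CPM at 6 months and was 6.79-fold higher (log2 fold change 2.76, standard error 0.24, adjusted p = 2.54e-05). C6, a component of the complement membrane attack complex, was measured at 97.3, 31.2 and 51.9 CPM at 1 month and at 453, 455 and 505 CPM at 6 months (log2 fold change 2.97, standard error 0.34, adjusted p = 2.58e-04). Susd4, an inhibitor of complement, was measured at 5.47, 1.13 and 2.83 CPM at 1 month and at 41.0, 40.0 and 31.8 CPM at 6 months (log2 fold change 3.60, standard error 0.39, adjusted p = 1.75e-04). The libraries of 1-month-old livers varied more than those of 6-month-old livers in C6 and Susd4, with replicate 1 the highest and replicate 2 the lowest, and the groups did not overlap. Cyp7b1, which hydroxylates oxysterols and steroids, was measured at 28.6, 14.5 and 22.6 CPM at 1 month and at 135, 133 and 128 CPM at 6 months (log2 fold change 2.59, standard error 0.34, adjusted p = 6.01e-04). Cyp4a12a and Cyp4a12b, which hydroxylate fatty acids, had log2 fold changes of 1.32 and 2.63, but share 48.9% and 49.4% of their words and cannot be told apart with certainty. Other male-biased genes did not pass: Slco1a1, an organic anion transporter, had a log2 fold change of -0.00, adjusted p = 0.995, and Cyp2d9 one of 0.30, adjusted p = 0.342.

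Of 19 major urinary protein (Mup) genes tested, 5 were higher and none was lower. The Mup genes took 0.641% to 0.83% of all counts at 1 month and 1.27% to 1.81% at 6 months, without overlap. Mup20 was among the 5, and it shares 48.0% of its words with the pseudogene Mup-ps19. Mup21 was measured at 42.0, 12.7 and 21.0 CPM at 1 month and at 139.9, 169 and 170.2 CPM at 6 months (log2 fold change 2.67, standard error 0.34, adjusted p = 5.98e-04). The other 3 depended on single libraries, since between 2 and 4 of the 19 passed without any 1 library (2 without 1-month replicate 2 and without 6-month replicates 1 and 3, and 3 without 1-month replicate 3). With the 6 day 2 libraries fitted alone, or with no filter on low counts, 10 were higher.

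Of 79 CYP genes tested, 7 were higher and 15 were lower, and 9 of the 15 were on the female-biased list. Cyp2e1, which is regarded as the main enzyme that activates DEN, was measured at 6178, 5079 and 5025 CPM at 1 month and at 6810, 5432 and 4112 CPM at 6 months. Its log2 fold change was 0.01 with a standard error of 0.29 (adjusted p = 0.993), and the groups overlapped. The list of DEN-activating enzymes held 3 other CYP genes, which the paper does not name as activators. Of these, Cyp2a4 and Cyp2b10 were lower and the remaining gene did not pass. Their part in activating DEN was not tested. Cyp2a4 and Cyp2b10 were also called lower in untreated livers and on day 6. Cyp2a4, which hydroxylates testosterone, was measured at 206, 542 and 42.9 CPM at 1 month and at 7.26, 1.92 and 1.86 CPM at 6 months (log2 fold change -6.14, standard error 1.09, adjusted p = 0.00666), and 36.1% of its words also occur in Cyp2a5. Cyp2b10, which is induced through the receptor CAR, was measured at 12.1, 11.3 and 30.6 CPM at 1 month and at 0.720, 3.43 and 2.19 CPM at 6 months (log2 fold change -3.12, standard error 0.62, adjusted p = 0.0128). Cyp2c68 was lower, at 331, 478 and 509.6 CPM at 1 month and at 152, 136 and 123 CPM at 6 months. Of its words, 35.6% also occur in Cyp2c40, which was lower too. Cyp2c67 was higher, at 198, 232 and 156 CPM at 1 month and at 399.8, 343 and 331 CPM at 6 months.

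Genes of conjugation enzymes moved both ways. Of 18 UDP-glucuronosyltransferase genes tested, 1 was higher and 2 were lower, of 19 glutathione transferase genes 2 were higher and 1 was lower, and of 13 sulfotransferase genes 3 were lower and none was higher. Ugt1a9 was lower at 237, 316 and 314 CPM at 1 month and at 119, 96.1 and 154 CPM at 6 months (log2 fold change -1.23, standard error 0.18, adjusted p = 0.00196), but 62.0% of its words also occur in other genes, mainly in Ugt1a10. Ugt3a1 was higher, with a log2 fold change of 0.76, adjusted p = 0.0235, and lost its call without 1-month replicate 2 (adjusted p = 0.104). Gsto1 was lower (-0.80, adjusted p = 0.00582) and Sult1a1 was lower (-0.91, adjusted p = 0.0157). Gstp2 and Gstp1 were higher, with log2 fold changes of 1.40, adjusted p = 0.0436 and 0.61, adjusted p = 0.0863, and share 54.3% and 33.7% of their words with other genes, mainly with each other. Gstp2 lost its call without 6-month replicate 3 (adjusted p = 0.183), and Gstp1 lost it without 1-month replicate 3 (0.226), 6-month replicate 1 (0.119), 6-month replicate 2 (0.218) or 6-month replicate 3 (0.184). The glutathione transferase counts were 4 higher and 1 lower without 1-month replicate 2, 2 and 3 without 1-month replicate 1, 0 and 1 without 6-month replicate 3, and 1 and 1 without each other library. The sulfotransferase count was 6 without 1-month replicate 1 and 2 without each other library.

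Genes of the fetal liver were mixed in direction. Of 12 tested, 2 were higher and 2 were lower, and of 15 imprinted genes that control growth, 1 was higher and 5 were lower. H19, an imprinted RNA that is abundant in the fetal liver, was measured at 4.19, 4.19 and 13.2 CPM at 1 month and at 0.125, 0.167 and 0.199 CPM at 6 months (log2 fold change -5.42, standard error 0.80, adjusted p = 0.00184), and 1-month replicate 3 was the highest. Grb10, an imprinted inhibitor of growth factor signalling, was measured at 6.58, 8.94 and 8.41 CPM at 1 month and at 3.22, 3.17 and 4.71 CPM at 6 months (log2 fold change -1.10, standard error 0.24, adjusted p = 0.0195). Of the 4 fetal genes, Igf2bp3 passed without each of the 6 libraries, and it was the single one that passed without 1-month replicate 2 or 3 or without 6-month replicate 1 or 3. Of the 5 lower imprinted genes, 2 passed without 6-month replicate 1 and 3 passed without 1-month replicate 3, 6-month replicate 2 or 6-month replicate 3, and the higher one, Peg10, lost its call without 1-month replicate 1 (adjusted p = 0.103), 1-month replicate 2 (0.269), 6-month replicate 1 (0.166) or 6-month replicate 3 (0.236).

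Of 19 genes of the growth hormone and IGF axis, 4 were lower and none was higher. Igfbp3, the main carrier of IGF1 in blood, was measured at 38.5, 33.3 and 41.5 CPM at 1 month and at 10.9, 9.27 and 14.6 CPM at 6 months (log2 fold change -1.70, standard error 0.24, adjusted p = 0.00128). Igfbp1, a carrier that fasting induces, was measured at 267, 225 and 533 CPM at 1 month and at 42.1, 40.9 and 116 CPM at 6 months (log2 fold change -2.36, standard error 0.50, adjusted p = 0.0180), and replicate 3 was the highest library at each age. The growth hormone receptor gene Ghr was measured at 567, 406 and 625 CPM at 1 month and at 484, 522 and 483 CPM at 6 months and did not pass (-0.10, adjusted p = 0.739). For Igf1 the log2 fold change was -0.46, adjusted p = 0.113.

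Genes of collagens and the extracellular matrix were lower in part. Of 37 tested, 13 were lower and none was higher, 29 had a negative sign, and the median log2 fold change was -0.77. Sparc, a collagen-binding glycoprotein, was measured at 147, 143 and 169 CPM at 1 month and at 41.1, 35.1 and 50.7 CPM at 6 months (log2 fold change -1.85, standard error 0.18, adjusted p = 6.18e-05). Col3a1, of fibrillar collagen III, was measured at 95.3, 81.8 and 162 CPM at 1 month and at 33.8, 20.5 and 46.8 CPM at 6 months (log2 fold change -1.75, standard error 0.33, adjusted p = 0.00942). Col4a2, of the basement membrane, was measured at 64.4, 52.3 and 63.4 CPM at 1 month and at 25.3, 18.0 and 27.5 CPM at 6 months (log2 fold change -1.35, standard error 0.23, adjusted p = 0.00435). Postn (periostin) had a log2 fold change of -1.30, adjusted p = 0.00183 and Col1a2 one of -1.58, adjusted p = 0.00945. In Col3a1 replicate 3 was the highest library at each age, and none of the 3 genes overlapped between the ages. The count of lower genes was 5 without 1-month replicate 3, 6 without 6-month replicate 1, 7 without 6-month replicate 2 and 18 without 1-month replicate 1. In bulk samples fewer cells of a type and less RNA per cell cannot be told apart. Of 10 stellate cell markers, which mark the main source of collagen in the liver, 1 was higher and 1 was lower, and in sum they were at 277 to 301 CPM at 1 month and at 261 to 325 CPM at 6 months, none of them at 0. Untreated livers had 11 of the 37 matrix genes lower and day 6 had 7.

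Genes of cell division had negative fold changes on day 2, with a wide spread between the 1-month libraries. Of 39 tested, 38 had a negative sign and the median log2 fold change was -1.2, but 6 passed. Mcm6, of the replicative helicase, was measured at 14.1, 33.9 and 21.5 CPM at 1 month and at 12.0, 5.26 and 6.57 CPM at 6 months (log2 fold change -1.54, standard error 0.33, adjusted p = 0.0184). Rrm2, of ribonucleotide reductase, was measured at 9.52, 19.1 and 10.4 CPM at 1 month and at 7.67, 6.18 and 5.34 CPM at 6 months (log2 fold change -1.02, standard error 0.25, adjusted p = 0.0380). Cdk1, the kinase of mitosis, was measured at 4.32, 12.8 and 4.75 CPM at 1 month and at 2.57, 1.21 and 2.52 CPM at 6 months (log2 fold change -1.79, standard error 0.53, adjusted p = 0.0880). Mki67, the marker of cycling cells, was at 8.51, 15.5 and 12.4 CPM at 1 month and at 5.70, 2.97 and 8.76 CPM at 6 months, and Top2a, a topoisomerase of dividing cells, had a log2 fold change of -1.13, adjusted p = 0.262. Replicate 2 was the highest of the 1-month libraries in each of these genes and the lowest of the 6-month libraries in all of them but Rrm2. The number that passed was 24 without 1-month replicate 1, 4 without 1-month replicate 3 or 6-month replicate 1, 2 without 6-month replicate 2, and 1 without 1-month replicate 2 or 6-month replicate 3. Rrm2 lost its call without 1-month replicate 2 (adjusted p = 0.162) and without 6-month replicate 3 (adjusted p = 0.165). Cdk1 lost it without 1-month replicate 2 (adjusted p = 0.392), 6-month replicate 1 (0.155), 6-month replicate 2 (0.195) or 6-month replicate 3 (0.193). In untreated livers none of the 39 passed and the median log2 fold change was -0.39, while on day 6 there was 1 with a median of -0.44. The difference between the age effects on day 2 and in untreated livers passed for none of these genes (Mcm6, adjusted p = 0.943).

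Target genes of p53, the transcription factor that DNA damage activates, were in part higher in the 6-month libraries. Of 45 tested, 13 were higher and 1 (Perp) was lower, 31 did not pass, 38 had a positive sign, and the median log2 fold change was 0.51. The number of higher genes was 8 without 1-month replicate 3, 6-month replicate 1 or 6-month replicate 3, 12 without 1-month replicate 2 or 6-month replicate 2, and 17 without 1-month replicate 1. With the 6 day 2 libraries fitted alone it was 7. Perp, a protein of cell junctions, passed without 1-month replicate 1 but not without any other library (adjusted p = 0.136 to 0.239). In untreated livers 1 of the 45 was higher and 1 was lower (background 1.61% and 1.06%), and on day 6 it was 17 and 0 (2.61% and 1.86%).

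Plk2, a kinase of the centrosome and the DNA damage response, led the list. Plk2 (ENSMUSG00000021701, chr13:110395044-110400844 of GRCm38, plus strand) was measured at 16.8, 20.2 and 13.3 CPM at 1 month and at 57.6, 54.2 and 63.0 CPM at 6 months (log2 fold change 1.80, standard error 0.17, adjusted p = 4.27e-05). Untreated livers held Plk2 at 9.30 ± 1.12 CPM at 1 month and 15.0 ± 0.449 CPM at 6 months (SD, n = 2). The age difference was 0.69 (adjusted p = 0.140) in untreated livers and 1.53 (adjusted p = 2.88e-04) on day 6. Eda2r, a death receptor of the TNF receptor family, was measured at 7.82, 10.3 and 2.79 CPM at 1 month and at 28.6, 24.6 and 34.2 CPM at 6 months (log2 fold change 2.06, standard error 0.35, adjusted p = 0.00503), and 1-month replicate 3 was well below the other libraries. Untreated livers held Eda2r at 1.38 ± 0.214 CPM at 1 month and 2.63 ± 0.178 CPM at 6 months (SD, n = 2), so that all 6 libraries on day 2 were above the untreated level of their age. Ddit4l, an inhibitor of mTOR signalling, was measured at 4.42, 7.11 and 3.79 CPM at 1 month and at 12.1, 12.4 and 13.5 CPM at 6 months (log2 fold change 1.30, standard error 0.24, adjusted p = 0.00846).

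The feedback inhibitor of p53 itself was among the higher genes. Mdm2, the ubiquitin ligase that degrades p53, was measured at 57.5, 57.7 and 37.4 CPM at 1 month and at 105, 88.7 and 96.3 CPM at 6 months (log2 fold change 0.92, standard error 0.18, adjusted p = 0.0116). Ccng1, a cyclin that binds MDM2, was measured at 125, 173 and 78.8 CPM at 1 month and at 249, 247 and 245 CPM at 6 months (log2 fold change 0.98, standard error 0.25, adjusted p = 0.0487). Polk, a polymerase that copies past damaged bases, was measured at 12.9, 10.9 and 7.76 CPM at 1 month and at 20.8, 20.1 and 20.8 CPM at 6 months (log2 fold change 0.97, standard error 0.20, adjusted p = 0.0147). Ccng1 lost its call without 1-month replicate 3 (adjusted p = 0.146), 6-month replicate 1 (0.135) or 6-month replicate 3 (0.146). For these 3 genes the lowest library was 1-month replicate 3, and the 6-month libraries lay close together. Cdkn1a, the inhibitor of cyclin-dependent kinases that is the best known p53 target, was measured at 47.6, 106 and 81.4 CPM at 1 month and at 166, 112 and 214 CPM at 6 months. Its groups did not overlap, but it did not pass (log2 fold change 1.07, standard error 0.58, adjusted p = 0.338). Bax and Bbc3, which drive apoptosis, had log2 fold changes of 0.16, adjusted p = 0.725 and of -0.02, adjusted p = 0.983. The age effect on day 2 minus that in untreated livers passed for none of the 45 genes, and for Plk2 it was 1.11 with a standard error of 0.26 (adjusted p = 0.943).

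**Figure D4:**
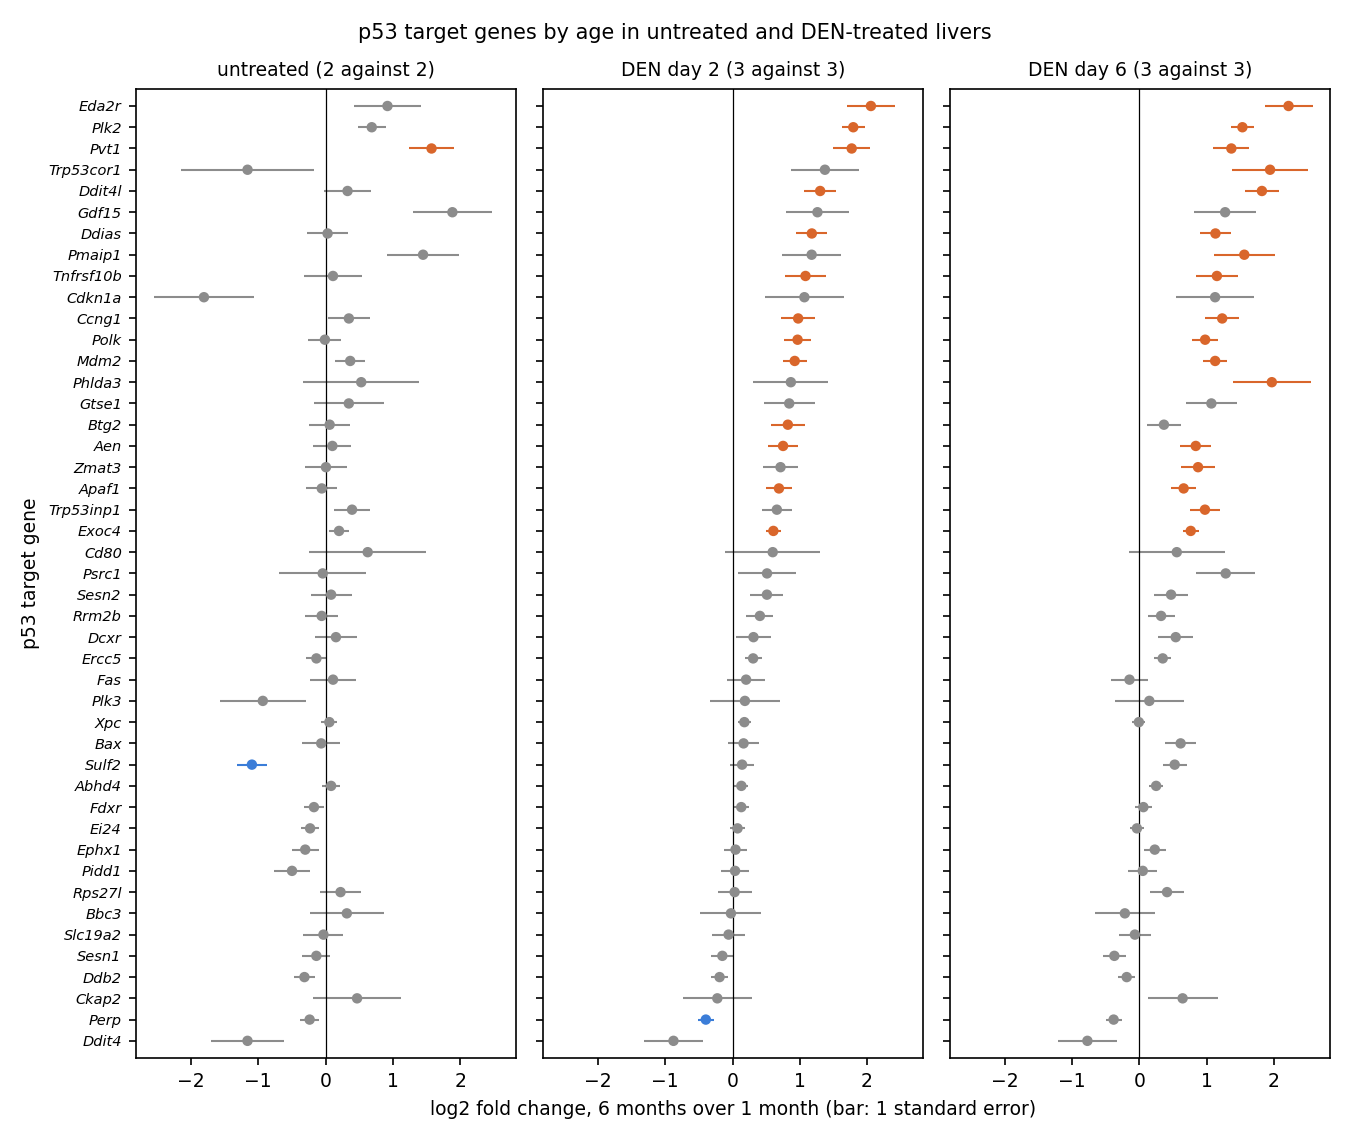
Points are log2 fold changes of 6 months over 1 month for the 45 p53 target genes tested, with bars of 1 standard error, in untreated livers (2 libraries against 2), on day 2 and on day 6 after DEN (3 against 3), in the order of their values on day 2. Genes at an adjusted p under 0.1 are coloured: 1 was higher and 1 lower in untreated livers, 13 higher and 1 lower on day 2, and 17 higher on day 6.

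DNA repair genes had medians near that of all genes. Of 34 genes of double-strand break repair, 3 were lower (8.82%, beside 2.63% of all genes tested) and none was higher, with a median log2 fold change of -0.10. Of 36 genes of excision, alkylation and mismatch repair, 2 were higher and none was lower, with a median of -0.03. That count was 4 higher and 2 lower without 1-month replicate 1 and 1 higher without each other library. H2afx, which encodes the histone whose phosphorylated form marks breaks, was measured at 7.36, 15.9 and 8.71 CPM at 1 month and at 5.79, 4.85 and 5.91 CPM at 6 months (log2 fold change -0.95, standard error 0.25, adjusted p = 0.0540). It lost its call without 1-month replicate 2 (adjusted p = 0.241), 6-month replicate 1 (0.121), 6-month replicate 2 (0.132) or 6-month replicate 3 (0.136). Without 1-month replicate 2, or without 6-month replicate 2, none of the 34 passed. Neil2, a glycosylase that removes oxidized bases, was at 0.506, 0.328 and 0.174 CPM at 1 month and at 1.00, 1.38 and 0.996 CPM at 6 months (log2 fold change 1.73, standard error 0.38, adjusted p = 0.0235).

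Acute phase genes, which hepatocytes switch on under IL-6 and IL-1 signals, were higher in part. Of 23 tested, 8 were higher and none was lower, and 15 did not pass. Orm2 (orosomucoid) was measured at 6.81, 14.4 and 15.0 CPM at 1 month and at 79.8, 106 and 119.9 CPM at 6 months and was 8.44-fold higher (log2 fold change 3.08, standard error 0.35, adjusted p = 2.32e-04). It shares 20.4% of its words with Orm1. Lcn2 (lipocalin 2), which binds bacterial siderophores, was measured at 11.3, 9.88 and 20.3 CPM at 1 month and at 82.0, 77.4 and 67.8 CPM at 6 months (log2 fold change 2.45, standard error 0.39, adjusted p = 0.00318). Saa1, a serum amyloid A, was measured at 36.5, 25.6 and 73.0 CPM at 1 month and at 529.8, 712 and 139.9 CPM at 6 months (log2 fold change 3.35, standard error 0.58, adjusted p = 0.00531). The 6-month libraries of Saa1 spread widely, with replicate 3 the lowest, and still did not overlap those at 1 month. Saa1 shares 31.1% of its words with Saa2, which moved the same way (3.98, adjusted p = 0.0157). Socs3, the feedback inhibitor of IL-6 signalling, was measured at 9.94, 7.51 and 4.14 CPM at 1 month and at 20.6, 28.9 and 18.9 CPM at 6 months (log2 fold change 1.66, standard error 0.34, adjusted p = 0.0151). The fibrinogen genes Fga, Fgb and Fgg, the haptoglobin gene Hp and Crp did not pass. The count was 5 without 6-month replicate 3 and 6 to 8 without any other library.

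The acute phase genes were set beside their levels at the other times. In untreated livers Orm2 was at 10.6 ± 1.16 CPM at 1 month and 31.1 ± 14.9 CPM at 6 months (SD, n = 2), with an age difference of 1.55 (adjusted p = 0.0870), and on day 6 the difference was 0.75 (adjusted p = 0.277). For Saa1 the age difference was 1.58 (adjusted p = 0.327) in untreated livers and -0.43 (adjusted p = 0.770) on day 6. Of the 23 genes, 2 were higher and 1 was lower in untreated livers and none passed on day 6. The age difference of Orm2 on day 2 minus that on day 6 was 2.32, and it did not pass (adjusted p = 1), nor did any gene in that contrast.

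Genes of antigen presentation were higher at 6 months. Of 17 tested, 10 were higher and none was lower, and the median log2 fold change was 0.86. The 10 held the class II genes H2-Aa, H2-Ab1, H2-Eb1, H2-DMa and H2-DMb1, the invariant chain Cd74 and Ciita, the activator of class II transcription. The others were Nlrc5, Psmb9 and Tap2, which belong to the class I pathway. Ciita was measured at 1.20, 0.656 and 0.828 CPM at 1 month and at 6.57, 2.80 and 6.94 CPM at 6 months (log2 fold change 2.62, standard error 0.45, adjusted p = 0.00547). Cd74 was measured at 55.7, 47.0 and 36.8 CPM at 1 month and at 295, 107 and 286 CPM at 6 months (log2 fold change 2.30, standard error 0.54, adjusted p = 0.0331). H2-Ab1 was at 17.1, 15.3 and 10.3 CPM at 1 month and at 76.5, 35.1 and 74.1 CPM at 6 months (log2 fold change 2.12, standard error 0.52, adjusted p = 0.0403). In each of the 3 genes 6-month replicate 2 was the lowest of its age and still above every 1-month library. The class I genes H2-K1 and B2m did not pass: H2-K1 had a log2 fold change of 0.17, adjusted p = 0.557 and B2m of 0.18, adjusted p = 0.532. The count of higher genes was 2 without 1-month replicate 2, 1-month replicate 3 or 6-month replicate 3, 3 without 6-month replicate 1, and 10 without either of the other libraries. Cd74 lost its call without 1-month replicate 2 (adjusted p = 0.120), 1-month replicate 3 (0.124), 6-month replicate 1 (0.107) or 6-month replicate 3 (0.121), and H2-Ab1 lost it without the same libraries (0.131, 0.145, 0.124 and 0.139), while Ciita kept it under each of these.

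Markers of T and NK lymphocytes moved with the class II genes. Of 14 tested, 6 were higher and none was lower, with a median log2 fold change of 1.42. In sum they were at 9.98 to 12.8 CPM at 1 month and at 16.4 to 44.2 CPM at 6 months, with 6-month replicate 2 the lowest of its age and none of the markers at 0. Ccl5, a chemokine of cytotoxic lymphocytes, was measured at 1.79, 1.90 and 1.44 CPM at 1 month and at 12.8, 5.43 and 14.9 CPM at 6 months (log2 fold change 2.69, standard error 0.46, adjusted p = 0.00541). Cd8a, the co-receptor of cytotoxic T cells, was measured at 0.322, 0.438 and 0.523 CPM at 1 month and at 2.60, 0.961 and 4.08 CPM at 6 months (log2 fold change 2.57, standard error 0.49, adjusted p = 0.0102). Nkg7, of cytotoxic granules, was measured at 0.782, 0.656 and 0.392 CPM at 1 month and at 3.32, 1.30 and 3.82 CPM at 6 months (log2 fold change 2.20, standard error 0.43, adjusted p = 0.0126). The number of higher genes was 3 without 1-month replicate 2 or 6-month replicate 3, 4 without 1-month replicate 3 or 6-month replicate 1, and 8 without 6-month replicate 2. Of 8 B and plasma cell markers tested, Jchain alone passed (1.46, adjusted p = 0.00759), and in sum the markers of that list were at 6.75 to 8.86 CPM at 1 month and at 11.0 to 15.4 CPM at 6 months, while Igha, Ighd, Ighm, Igkc and Iglc1 are listed at 0 in all 6 libraries. The 13 macrophage markers, at 622 to 922 CPM and 736 to 1216 CPM in sum, overlapped, and none passed. The part of the lymphocyte markers in the antigen presentation result was not tested.

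**Figure D5:**
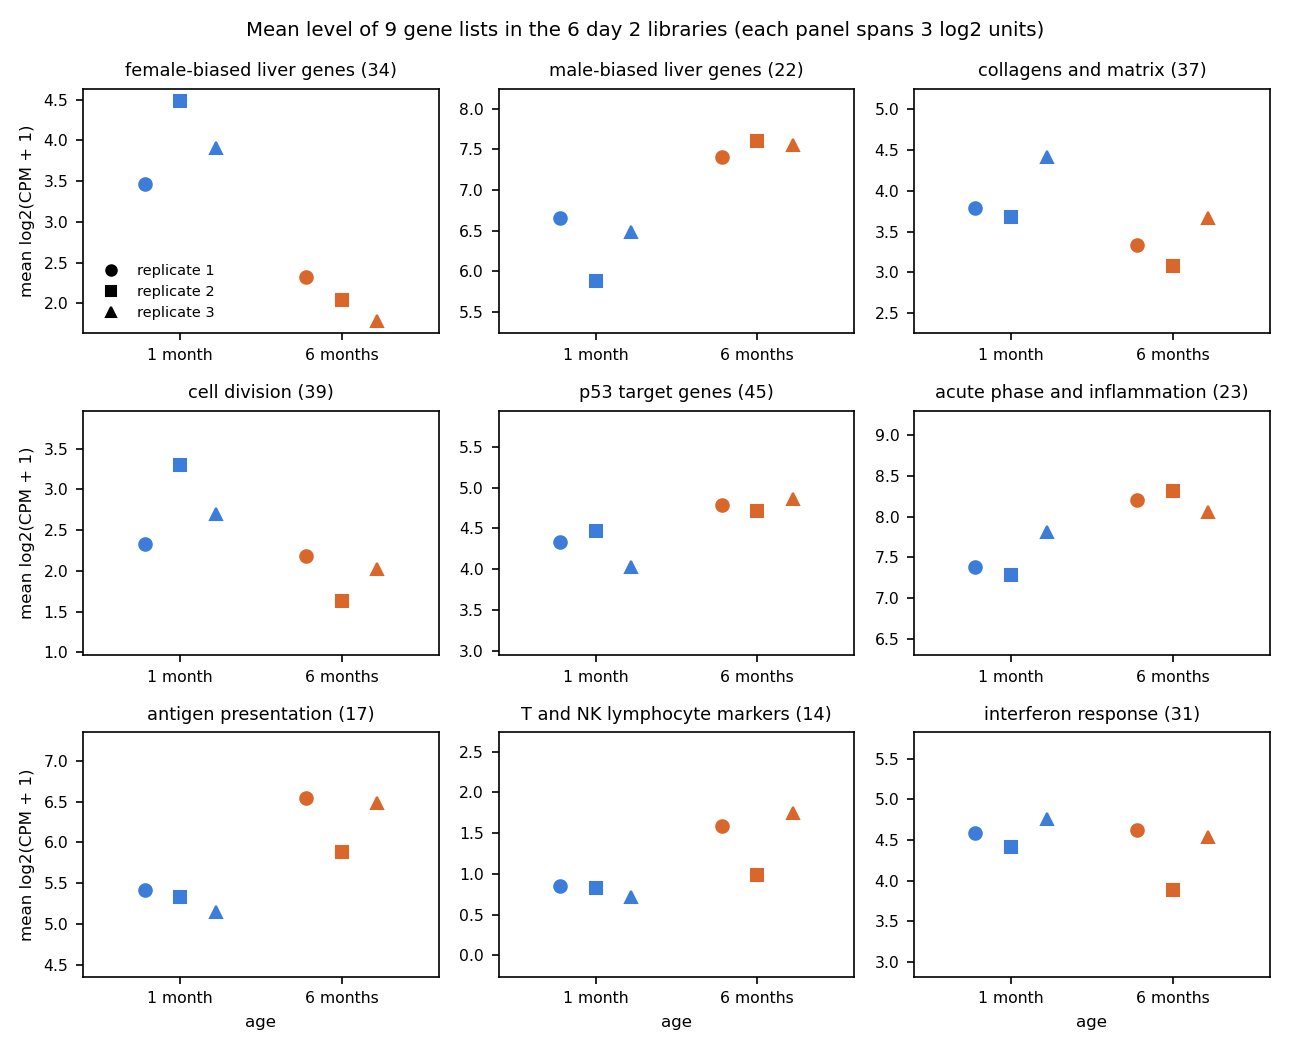
Each point is the mean of log2(CPM + 1) over the tested members of a list in 1 pooled library on day 2, by age on the x axis, with the number of members in the panel title and the same height of scale in every panel. The ages did not overlap in 8 of the 9 panels, the interferon panel being the exception. In the collagen panel the nearest libraries were at 3.68 (1 month) and 3.67 (6 months). Among all single genes tested, 21.3% did not overlap, and the lists were chosen with earlier results known. Summed CPM did overlap for the collagen, antigen presentation, acute phase, female-biased and interferon lists. It did not for the male-biased, cell division, p53 target and lymphocyte lists. The lowest 6-month library was replicate 2 in 6 panels, those of collagens, cell division, p53 targets, antigen presentation, lymphocyte markers and the interferon response.

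Interferon-induced genes went the other way in part. Of 31 tested, 5 were lower and none was higher, and the median log2 fold change was -0.14. Usp18, a protease that removes ISG15 from proteins, was measured at 39.8, 39.2 and 32.2 CPM at 1 month and at 20.0, 11.9 and 12.6 CPM at 6 months (log2 fold change -1.32, standard error 0.24, adjusted p = 0.00719). Ifi44 was measured at 16.6, 12.3 and 17.7 CPM at 1 month and at 8.26, 5.43 and 6.24 CPM at 6 months (log2 fold change -1.22, standard error 0.21, adjusted p = 0.00547). Ifit3, which binds viral RNA, had a log2 fold change of -1.12, adjusted p = 0.00705, but 51.2% of its words are also in Ifit3b. Replicate 1 was the highest of the 6-month libraries in these genes. The count was 3 without 1-month replicate 3, 6-month replicate 2 or 6-month replicate 3 and 4 to 6 without each other library.

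Abundant hepatocyte products were among the lower genes. Ahsg (fetuin-A), a blood protein that inhibits calcification, was measured at 12280, 12450 and 15420 CPM at 1 month and at 6375, 5671 and 5245 CPM at 6 months (log2 fold change -1.22, standard error 0.17, adjusted p = 0.00134). Ahsg and Ttr were the 2 of 11 hepatocyte markers that passed, both lower, and Ahsg alone passed without 1-month replicate 2 or 3 or without 6-month replicate 1 or 3. In sum these markers were at 60930 to 85650 CPM at 1 month and 53410 to 56020 CPM at 6 months. Cyp3a11, a P450 of drug metabolism, was measured at 5453, 7047 and 9316 CPM at 1 month and at 3356, 3744 and 5024 CPM at 6 months (log2 fold change -0.85, standard error 0.21, adjusted p = 0.0401). It lost its call without 1-month replicate 3 (adjusted p = 0.145), 6-month replicate 1 (0.139) or 6-month replicate 2 (0.103). Of 78 cytosolic ribosomal protein genes, 77 had a negative sign, with a median log2 fold change of -0.22, and 1 passed, Rps4l, annotated as a transcribed processed pseudogene, which lost its call without 1-month replicate 2 (adjusted p = 0.144), 1-month replicate 3 (0.135) or 6-month replicate 3 (0.165). In sum the genes of that list were at 11830, 17590 and 11670 CPM at 1 month. At 6 months they were at 11370, 13800 and 10310 CPM, so that the ages overlapped, with replicate 2 the highest at each age. Of 13 sinusoidal endothelium markers, all 13 had a negative sign and 2 were lower, of which 1 was left without 1-month replicate 2 or 3 or without any 6-month replicate. That gene was Oit3, at 37.1, 33.5 and 35.4 CPM at 1 month and at 19.6, 14.2 and 18.0 CPM at 6 months (log2 fold change -1.03, standard error 0.20, adjusted p = 0.0101).

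Of 30 genes of bile acid synthesis and transport, 1 (Cyp7b1) was higher and 3 were lower. Cyp39a1, which hydroxylates an oxysterol on the way to bile acids, was measured at 60.5, 102 and 99.3 CPM at 1 month and at 15.6, 28.8 and 16.9 CPM at 6 months (log2 fold change -2.09, standard error 0.27, adjusted p = 5.89e-04). It was the single lower gene without 1-month replicate 2 or 3 or without 6-month replicate 1 or 3. Pigr, the receptor that carries IgA into bile, was the single one of 16 periportal genes that passed and the single one with a positive sign, against a median of -0.33, at 774, 434 and 908 CPM at 1 month and at 1414, 1483 and 1549 CPM at 6 months (log2 fold change 1.07, standard error 0.21, adjusted p = 0.0128).

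The same comparison of ages was made in untreated livers and on day 6, with other libraries. In untreated livers 252 genes were higher (1.61%) and 166 were lower (1.06%), from 2 libraries at each age, or 2.67% in all, and on day 6 it was 410 (2.61%) and 291 (1.86%), or 4.47% in all. Of the 513 genes that were higher on day 2, 490 had the same sign in untreated livers and 176 were called there too, which is 34.3% of the day 2 list and 69.8% of the untreated one. Of the 413 lower genes, 393 had the same sign and 108 were called, 26.2% and 65.1% of the lists. On day 6 the shared calls were 242 higher (47.2% of the day 2 list, 59.0% of the other) and 143 lower (34.6% and 49.1%). In all 3 comparisons 131 genes were higher and 84 were lower, among them Igf2bp3, Serpine2, Mup20, Cyp2c40 and Sparc.

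A call on day 2 alone was found for 226 higher and 246 lower genes, but the test of the difference itself passed for 1 gene. The age effect on day 2 minus that in untreated livers passed for Aatk alone (0.00638% of the genes tested), with 699 genes at an unadjusted p under 0.05 and 9 genes by DESeq2. Against day 6 no gene passed, with 321 at an unadjusted p under 0.05 and 5 by DESeq2. Both unadjusted counts are below a share of 0.05 of the 15684 genes tested, the share expected with no difference at all. Aatk, a kinase of membrane trafficking, was measured at 2.71, 1.75 and 1.74 CPM at 1 month and at 2.72, 3.17 and 2.52 CPM at 6 months, and its age difference on day 2 did not pass (log2 fold change 0.44, standard error 0.20, adjusted p = 0.254). In untreated livers it was at 1.76 ± 0.227 CPM at 1 month and 13.6 ± 0.188 CPM at 6 months (SD, n = 2), with an age difference of 2.95 (adjusted p = 2.55e-05). The difference of the differences was -2.51 (adjusted p = 0.0232). The 6-month libraries of untreated livers were thus high in Aatk, while the other 14 libraries lay between 1.60 and 3.45 CPM. The count of 1 gene became 0 without 6-month replicate 1 or 3 of day 2, or without replicate 2 of either untreated group, 2 without replicate 1 of either 1-month group, and 11 without the untreated 6-month replicate 1.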

How the data were processed

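The authors used TopHat2 2.0.13 and GRCm38 to map the reads and counted them per gene, and the deposited values are whole raw counts. The submitters' processing notes also name cutadapt, Cufflinks 2.2.1 and Cuffnorm, without saying which tool made the raw counts, and the strand setting was not given in the sources used here. Overlapping genes and close copies may share reads. Normalized counts (16 columns), fold changes and p-values of the authors' own comparisons were not used.

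Of 47729 genes, 10 with no count given were left out. Library sizes were scaled by TMM, genes were kept by filterByExpr (15684), and all 16 libraries entered 1 model of 6 groups in edgeR 4.0.16 (glmQLFit, glmQLFTest; R 4.3.3), with Benjamini-Hochberg adjustment over all genes tested and a threshold of 0.1. Fold changes have a prior count of 0.125 and levels are CPM over scaled library sizes. Each standard error was derived from the test, as the size of the log2 fold change divided by the square root of its F statistic. DESeq2 1.42.0, other scalings, filters, designs and left-out libraries were alternatives.

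The members and gene lists were chosen with earlier results of these data known. The text names, in each direction, the 10 genes with the largest change and the 10 with the smallest p among genes that passed without overlap, the 10 most abundant that passed, up to 4 members of each list, the 5 with the smallest p in each contrast of age differences, and checks. A further 30 genes were added with their values known, and a few genes that the rule names are not reported here. Shared words are 50-base words of GENCODE transcripts, and promoters are from RefSeq. Each library pools 3 mice, so p-values measure the spread between pools.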

Additional observations from a re-analysis of the deposited data

Results flagged for a closer look

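Aatk was the single gene whose age difference differed between day 2 after DEN and untreated livers by the test of that difference. The log2 fold change of 6 months over 1 month on day 2 minus that in untreated livers was -2.51 (adjusted p = 0.0232, edgeR). The 2 untreated 6-month libraries held Aatk at 13.5 and 13.7 CPM and the other 14 libraries at 1.60 to 3.45 CPM. The number of genes that passed this test was 0 without any one of 4 libraries and 11 without the untreated 6-month replicate 1.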

How the results depend on the processing

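Every gene that an alternative shared with the 926 calls on day 2 kept its direction. Of the 137 genes that passed among those chosen by the rule for named genes or added later, 83 passed under each alternative run. An adjusted p under 0.05 gave 316 higher and 217 lower genes on day 2, 244 genes in untreated livers and 334 on day 6. With the clock score as a covariate it was 990 and 950 on day 2, 818 in untreated livers, 1314 on day 6 and 2 for the age difference on day 2 minus the untreated one. DESeq2 called 725 lower genes on day 2, 746 in untreated livers and 1104 on day 6, with 9 genes for the difference from untreated livers and 5 for that from day 6. With the compared libraries fitted alone it was 271 higher and 193 lower on day 2, 111 in untreated livers and 0 for the difference from untreated livers. With no filter on low counts, 807 genes were higher on day 2, 794 passed in untreated livers, and 23 and 22 passed for the differences from untreated livers and from day 6. Library totals as the scaling gave 260 lower genes on day 2. Leaving out the 3 libraries of lowest clock score, an alternative chosen after seeing the data, gave 330 higher genes on day 2, 158 genes in untreated livers, 305 on day 6 and 0 for the difference from untreated livers. Without 1 library at a time, the counts ran from 223 to 1142 higher and from 162 to 1117 lower on day 2, from 114 to 276 in untreated livers, from 247 to 610 on day 6 and from 0 to 11 for the difference from untreated livers. For the age difference on day 2 minus that on day 6, edgeR called 0 genes each time a library was left out. The causes of these shifts were not tested.

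The replicate numbers are shared across groups, but nothing in the labels says that they pair pools. Over all genes, the deviations from the group means of same-numbered day 2 libraries correlated at 0.149, -0.00363 and 0.287, and not every library correlated best with its own number. With the replicate number as a block, 596 genes were higher and 492 lower on day 2, and 881 of the 926 calls were shared.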

Other observations

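Several smaller groups were measured beside those above. Of 14 senescence genes tested, 3 were higher and 2 were lower. The lower members were Igfbp3, described above with the IGF axis, and Glb1. Glb1 averaged 21.3 CPM at 1 month and 15.1 CPM at 6 months (adjusted p = 0.0250 by edgeR), without overlap. It was called lower in untreated livers and on day 6 too. Its day 2 call was lost only with the 6 day 2 libraries fitted alone (adjusted p = 0.124). Il1b, an inflammatory cytokine, was measured at 2.12, 2.15 and 1.70 CPM at 1 month and at 7.10, 6.52 and 9.33 CPM at 6 months (log2 fold change 1.94, standard error 0.28, adjusted p = 0.00135), without overlap. Cdkn2a, which encodes the cell cycle inhibitors p16 and ARF, was under 1 CPM in every library, at 0.0920, 0.146 and 0 CPM at 1 month and at 0.595, 0.501 and 0.896 CPM at 6 months (log2 fold change 2.95, standard error 0.73, adjusted p = 0.0414), and lost its call without 1-month replicate 3 (adjusted p = 0.125) or 6-month replicate 3 (adjusted p = 0.147). Of 16 immediate early genes Nr4a1, a nuclear receptor, alone was higher, at 2.21, 2.19 and 1.35 CPM at 1 month and at 9.98, 18.7 and 7.77 CPM at 6 months (log2 fold change 2.66, standard error 0.60, adjusted p = 0.0276), and lost its call without 1-month replicate 3 (adjusted p = 0.116). Hspb1, a small heat shock protein, was measured at 1.47, 2.26 and 3.14 CPM at 1 month and at 9.92, 7.69 and 15.1 CPM at 6 months (log2 fold change 2.25, standard error 0.34, adjusted p = 0.00226), and 48.8% of its words also occur in the pseudogene Hsp25-ps1. Of 34 serpin genes, 3 were higher and 2 were lower. Serpina7, which carries thyroid hormone, was at 55.8, 84.1 and 87.1 CPM at 1 month and at 219.6, 170.3 and 189.6 CPM at 6 months (log2 fold change 1.35, standard error 0.27, adjusted p = 0.0128), and Serpina9 was at 3.31, 3.50 and 3.92 CPM at 1 month and at 1.06, 0.710 and 0.763 CPM at 6 months (log2 fold change -2.07, standard error 0.26, adjusted p = 5.09e-04). Serpina1b and Serpina1d are listed at 0 in 1-month replicate 3 and at 49761 to 113642 counts in the other 5 libraries, so no level is given for them.

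Nnmt, which methylates nicotinamide, was among the 5 genes with the smallest p in the contrast of day 2 with day 6. It was measured at 33.2, 35.7 and 32.2 CPM at 1 month and at 82.7, 75.8 and 78.7 CPM at 6 months on day 2 (log2 fold change 1.23, standard error 0.19, adjusted p = 0.00212). The age difference was 1.30 (adjusted p = 0.0112) in untreated livers and -0.05 (adjusted p = 0.941) on day 6, and the contrast between the days did not pass (adjusted p = 1).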
